A study of Mus musculus with 15 samples.

Results

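Glutathione, the small thiol that buffers cells against oxidation, and the gene programme of the transcription factor NRF2 were followed through 10 genes of mouse neural precursor cells that overexpressed Atf4, Atf3 or neither. The genes were chosen by name, with earlier results of these data known: Gclc, Gclm, Gss, Gsr, Txnrd1, Nqo1, Hmox1, Srxn1, G6pdx and Nfe2l2. All 10 were found among the 55416 genes of the count table, and all 10 passed the filter on low counts, which kept 18244 genes. The lowest count behind any value of these genes was 832 and the highest 20947 per library.

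The cells were cultured from the hippocampus of 6-week-old female mice and carried a piggyBac insertion with a Tet-On transactivator and puromycin resistance. In the Atf4 line the inducible TRE3G promoter drove the coding sequence of Atf4, in the Atf3 line that of Atf3, and in the control line the cassette held neither. All 3 lines lost EGF and FGF and received doxycycline at 100 ng/ml at the start of differentiation, and cells were harvested after 10 h. There were 5 libraries per line, 15 in all, with 53.7 to 69.6 M counts per library. Each construct was represented by 1 stable line, so the transgene and the line cannot be told apart, and separate cultures within a line are not stated. The p-values therefore measure the spread between these samples only, and it may be technical.

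Glutathione is made in 2 steps. Glutamate-cysteine ligase, a pair of the catalytic subunit GCLC and the modifier subunit GCLM, joins glutamate to cysteine, and glutathione synthetase (GSS) adds glycine. Oxidized glutathione is returned to its reduced form by glutathione reductase (GSR) with NADPH, which the pentose phosphate pathway supplies through glucose-6-phosphate dehydrogenase (G6PDX). NRF2, the product of Nfe2l2, is held in the cytoplasm and degraded with the help of KEAP1 until oxidants or electrophiles modify KEAP1; it then enters the nucleus, pairs with a small MAF protein and binds antioxidant response elements. In neural stem cells NRF2 is known to support survival under oxidative stress.

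Short stretches before the start sites of these genes were searched for the letters of such elements. A match in letters is not a bound site, and binding was not measured. RefSeq start-site windows were matched for 7 genes (Gclm, Gss, Txnrd1, Nqo1, Srxn1, G6pdx and Nfe2l2), with 9 start sites. The 250 bases before each start were searched on both strands for 4 motifs: the antioxidant response element core TGACNNNGC, the AP-1 site TGANTCA, the cyclic AMP response element TGACGTCA, to which ATF and CREB proteins bind, and the composite site TGATGNAA of ATF4 with C/EBP proteins. Capitals mark the matches, the sequences read 5′ to 3′ on the strand of the gene, and coordinates are those of GRCm38.p6. Srxn1 (chr2:152105274-152105523, plus strand), Gclm (chr3:122245307-122245556, plus strand) and the second start site of Txnrd1 (chr10:82858956-82859205, plus strand) are shown for their matches. Nqo1 (chr8:107403206-107403455, minus strand) and Gss (chr2:155592811-155593060, minus strand) are shown as windows with none.
Srxn1: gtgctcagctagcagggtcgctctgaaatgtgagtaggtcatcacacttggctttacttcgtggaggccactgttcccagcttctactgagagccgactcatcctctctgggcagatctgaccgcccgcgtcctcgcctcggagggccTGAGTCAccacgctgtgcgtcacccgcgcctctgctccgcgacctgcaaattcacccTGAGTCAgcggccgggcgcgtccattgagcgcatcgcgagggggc
Gclm: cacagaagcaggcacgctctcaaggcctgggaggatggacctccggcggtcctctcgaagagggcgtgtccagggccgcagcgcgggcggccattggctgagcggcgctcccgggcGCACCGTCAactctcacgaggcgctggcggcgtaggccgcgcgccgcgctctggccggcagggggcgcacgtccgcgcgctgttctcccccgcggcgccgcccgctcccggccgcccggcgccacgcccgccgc
Txnrd1: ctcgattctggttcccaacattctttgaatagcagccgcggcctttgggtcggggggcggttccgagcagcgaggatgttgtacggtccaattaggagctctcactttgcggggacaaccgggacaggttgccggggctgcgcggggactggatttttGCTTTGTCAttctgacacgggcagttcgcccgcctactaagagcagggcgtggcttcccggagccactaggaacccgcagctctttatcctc
Nqo1: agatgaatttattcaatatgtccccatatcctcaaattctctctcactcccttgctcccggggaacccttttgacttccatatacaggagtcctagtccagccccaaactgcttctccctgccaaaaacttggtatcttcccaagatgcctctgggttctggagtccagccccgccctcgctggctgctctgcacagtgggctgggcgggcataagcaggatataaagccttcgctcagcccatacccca
Gss: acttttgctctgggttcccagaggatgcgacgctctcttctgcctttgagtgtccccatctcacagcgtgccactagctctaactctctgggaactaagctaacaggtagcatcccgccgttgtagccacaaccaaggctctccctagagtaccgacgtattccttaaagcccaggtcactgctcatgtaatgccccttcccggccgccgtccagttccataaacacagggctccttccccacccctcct

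The Srxn1 window held the AP-1 letters at 2 places, at positions -102 to -96 and -45 to -39 from the start. Gclm held an antioxidant response element core on the opposite strand at -134 to -126, and the second of the 3 Txnrd1 start sites held one at -92 to -84, also on the opposite strand. The core was matched as well in G6pdx (-57 to -49, opposite strand) and in Nfe2l2 (-240 to -232). Nqo1, Gss and the other Txnrd1 start sites held none of the 4 motifs, and no window of these genes held the cyclic AMP response element or the composite site. Of all 32851 promoter windows of the same length, 10.2% held the antioxidant response element core, 6.75% the AP-1 site, 1.55% the cyclic AMP response element and 3.45% the composite site. Nqo1, with no match in its window, was called higher in both Atf lines, and G6pdx, with a core match, was not called in Atf4 cells. Bases beyond these windows were not searched, and Gclc, Gsr and Hmox1 had no window. A link between matches and calls was therefore not tested. The Srxn1 window held no antioxidant response element core in the letters TGACNNNGC. Its AP-1 match at -45 to -39 is followed by the bases gc, and other spellings of the element were not searched. No match of one motif overlapped a match of another in the windows of these genes.

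**Figure D1:**
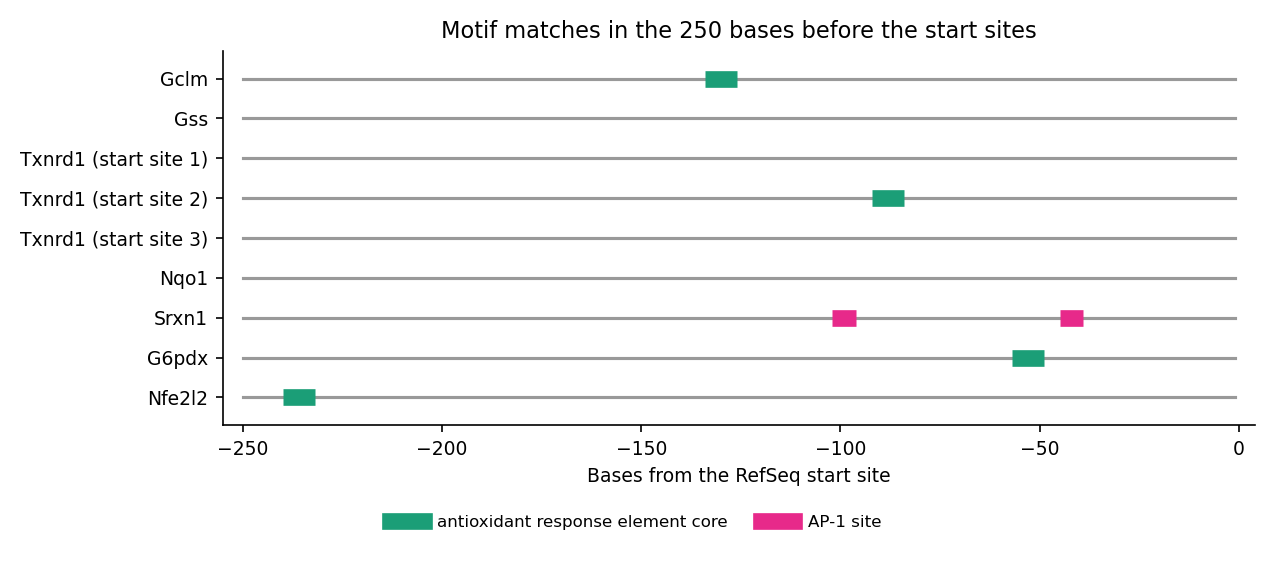
Matches of the antioxidant response element core and the AP-1 site in the 250 bases before the RefSeq start sites of 7 genes, with distance from the start site in bases on the horizontal axis and 1 row per start site. Of the 9 windows 5 held a match, and Srxn1 was the only one of them with AP-1 sites.

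The transgenes and the identity of the cells were examined before the members. Levels below are CPM, counts scaled to library totals that TMM has corrected, as mean ± SD with n = 5 per line unless another scale is named, and the cells of each line are called Atf4, Atf3 and control cells. Atf4 mRNA was at 153 ± 21.7 CPM in Atf4 cells, 250.3 ± 16.5 CPM in Atf3 cells and 83.2 ± 6.75 CPM in control cells, so the line named for Atf4 held less of it than the Atf3 line. Reads of the transgene and of the cells' own Atf4 gene were not separated in these counts, and ATF4 protein was not measured. Atf3 mRNA was at 1.40 ± 0.306 CPM in Atf4 cells, 1941 ± 119.5 CPM in Atf3 cells and 5.02 ± 4.10 CPM in control cells. The 8 neural precursor markers, Sox2 and Nes among them, summed to 3536 to 3613 CPM in the Atf4 libraries, 3852 to 3927 CPM in the Atf3 libraries and 3178 to 3444 CPM in the control libraries. They did not move as one. In Atf4, Atf3 and control cells, Fabp7 averaged 882, 1228 and 543 CPM and Nes 834, 1018 and 662 CPM. Vim averaged 1360, 1148 and 1598 CPM, Hes1 24.6, 58.0 and 51.7 CPM, and Sox2 233, 224 and 228 CPM. The 9 microglia and macrophage markers, a cell type rich in heme oxygenase 1, summed to 2.74 to 3.14, 3.91 to 5.01 and 3.16 to 4.10 CPM in the same order of lines, and C1qa had no count in any library. Mural cell and fibroblast markers (7) stayed at or under 1.01 CPM and red blood cell markers (5) at or under 0.225 CPM in every library, with no count of either Hbb gene. Endothelial markers (6) summed to 19.1 to 22.2 CPM in the Atf4 libraries, 13.4 to 19.6 CPM in the Atf3 libraries and 45.4 to 49.8 CPM in the control libraries, most of it Kdr. Kdr averaged 16.4, 10.1 and 44.3 CPM in Atf4, Atf3 and control cells. Tek went the other way, at 3.58, 5.23 and 1.95 CPM, as did Flt1, at 0.860, 1.01 and 0.543 CPM. Pecam1, Cdh5 and Cldn5 averaged at most 0.175 CPM in any line. The part of these markers in the results was not tested.

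Most of the 10 genes were higher in the Atf lines than in control cells, by up to 2.21-fold for Gsr in Atf3 cells, while Gss did not pass the test in either line. Against control, edgeR's quasi-likelihood test with Benjamini-Hochberg adjustment over all genes called 8 of the 10 genes higher in Atf4 cells and none lower, where 31.9% of all tested genes were called higher and 29.7% lower. In 7 of the 10 every Atf4 library lay above every control library, which held for 26.1% of all tested genes. In Atf3 cells 9 of 10 were called higher and none lower, where the shares over all tested genes were 36.8% and 36.3%. The libraries did not overlap for these 9, against 32.0% of all tested genes. The median log2 fold change over the 10 genes was 0.48 in Atf4 cells and 0.77 in Atf3 cells, beside -0.00085 and -0.017 over all tested genes. Both comparisons use the same 5 control libraries, and the 10 genes were chosen with earlier results of these data known. Only Gsr in Atf3 cells passed a 2-fold change, a size that 7.12% of all tested genes reached upward with a call in that comparison.

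**Figure D2:**
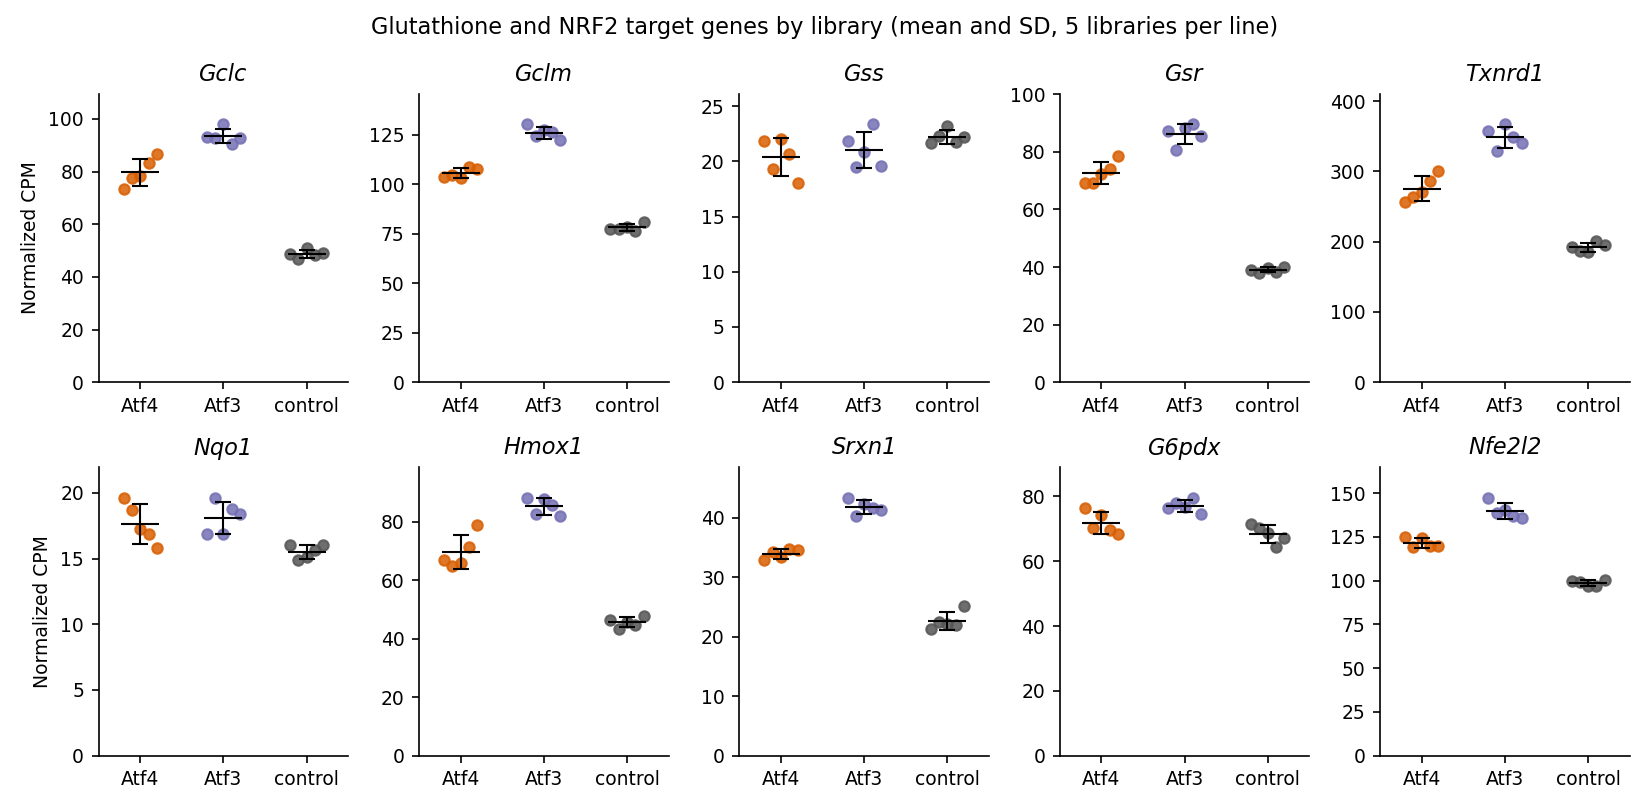
Normalized CPM of the 10 genes in each library, with the Atf4, Atf3 and control lines from left to right. Points are libraries, and the horizontal bar and whiskers are the mean and SD of 5 libraries; in 7 of the 10 panels the 3 lines form separate steps, while Gss lies at 18.04 to 23.3 CPM in all of them.

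Both subunits of glutamate-cysteine ligase, the rate-limiting enzyme of glutathione synthesis, rose. The catalytic subunit gene Gclc (ENSMUSG00000032350; GRCm38 chromosome 9, 77754535 to 77794485, plus strand) was at 73.3, 77.5, 78.3, 83.1 and 86.5 CPM in the Atf4 libraries, 93.2, 92.6, 97.9, 90.5 and 92.9 CPM in the Atf3 libraries and 48.7, 46.8, 51.0, 48.3 and 49.0 CPM in the control libraries. No 2 lines overlapped. Gclc was 1.63-fold higher in Atf4 cells than in control (log2 fold change 0.71 ± 0.04 SE, adjusted p by edgeR = 6.7e-11) and 1.92-fold higher in Atf3 cells (0.94 ± 0.04 SE, adjusted p by edgeR = 6.7e-13). The modifier subunit gene Gclm (ENSMUSG00000028124; chromosome 3, 122245557 to 122270732, plus strand) was at 104, 105, 103, 109 and 108 CPM in the Atf4 libraries, 130.3, 125, 127, 126 and 122 CPM in the Atf3 libraries and 77.6, 77.3, 78.5, 76.4 and 81.2 CPM in the control libraries. Its lines did not overlap either, and its rises were smaller, 1.35-fold in Atf4 cells (0.43 ± 0.03 SE, adjusted p by edgeR = 5.3e-10) and 1.61-fold in Atf3 cells (0.69 ± 0.03 SE, adjusted p by edgeR = 4.9e-13). Per exon base, the ratio of Gclc to Gclm was 1.26 ± 0.0580 in Atf4 cells, 1.24 ± 0.0411 in Atf3 cells and 1.04 ± 0.0322 in control cells. The lowest ratio in either Atf line, 1.18, lay above the highest in control cells, 1.08, so the catalytic subunit gained more than its partner in every Atf library.

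The second step of synthesis did not follow the first. Gss (ENSMUSG00000027610; chromosome 2, 155563181 to 155592810, minus strand) was at 21.8, 19.3, 22.04, 20.7 and 18.04 CPM in the Atf4 libraries, 21.8, 19.5, 20.8, 23.3 and 19.6 CPM in the Atf3 libraries and 21.7, 22.3, 23.2, 21.7 and 22.2 CPM in the control libraries, and the lines overlapped. Its log2 fold change was -0.12 ± 0.06 SE in Atf4 cells (adjusted p by edgeR = 0.0736) and -0.08 ± 0.06 SE in Atf3 cells (adjusted p by edgeR = 0.224). The 95% intervals ran from 0.847- to 0.993-fold and from 0.873- to 1.02-fold, so a rise of the size seen for Gclc lay outside both. Gss was called lower in both Atf lines with plain library totals (-0.16, adjusted p = 0.0215, in Atf4 cells and -0.22, adjusted p = 0.00230, in Atf3 cells) and with the filter at 1 CPM (adjusted p = 0.0217 and 0.0341), and in Atf4 cells also without Atf4 replicate 1 or 3 (adjusted p = 0.0299 and 0.0248).

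Glutathione reductase showed the largest rise of the 10 genes. Gsr (ENSMUSG00000031584; chromosome 8, 33652523 to 33698163, plus strand) was at 69.1, 69.1, 72.3, 74.2 and 78.5 CPM in the Atf4 libraries, 87.1, 80.8, 88.2, 89.6 and 85.6 CPM in the Atf3 libraries and 39.0, 38.0, 39.6, 38.2 and 40.1 CPM in the control libraries. Every Atf library lay far above every control library. The rise was 1.86-fold in Atf4 cells (0.90 ± 0.04 SE, adjusted p by edgeR = 1.9e-12) and 2.21-fold in Atf3 cells (1.14 ± 0.04 SE, adjusted p by edgeR = 5.3e-14). In the Atf4 comparison 94.7% of all tested genes had a lower fold change than Gsr, and in the Atf3 comparison 94.5%.

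Txnrd1 and Srxn1 belong to the thioredoxin system, which reduces protein disulfides beside glutathione, and both were higher. Txnrd1 (ENSMUSG00000020250; chromosome 10, 82833951 to 82897712, plus strand), encoding the cytosolic thioredoxin reductase, a selenoprotein, was at 256, 264, 271, 286 and 301 CPM in the Atf4 libraries, 357, 329.6, 367, 349 and 340.0 CPM in the Atf3 libraries and 192, 186, 185, 202 and 195 CPM in the control libraries. It rose 1.44-fold in Atf4 cells (0.52 ± 0.04 SE, adjusted p by edgeR = 6.5e-09) and 1.81-fold in Atf3 cells (0.86 ± 0.04 SE, adjusted p by edgeR = 3.4e-12). Srxn1 (ENSMUSG00000032802; chromosome 2, 152105516 to 152111376, plus strand) encodes sulfiredoxin, which restores peroxiredoxins that peroxide has over-oxidized. Its libraries were at 32.9, 34.2, 33.3, 34.7 and 34.6 CPM in Atf4 cells, 43.3, 40.4, 42.3, 41.7 and 41.3 CPM in Atf3 cells and 21.3, 22.4, 22.1, 21.96 and 25.2 CPM in control cells. Srxn1 was 1.501-fold higher in Atf4 cells (0.59 ± 0.04 SE, adjusted p by edgeR = 1.2e-09) and 1.85-fold higher in Atf3 cells (0.89 ± 0.04 SE, adjusted p by edgeR = 1.7e-12). Both genes formed 3 separate steps over the lines.

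Of the classical NRF2 marker genes, Hmox1 rose by more than Nqo1. Hmox1 (ENSMUSG00000005413; chromosome 8, 75093621 to 75100589, plus strand), encoding the heme-degrading enzyme heme oxygenase 1, was at 66.9, 64.9, 65.9, 71.3 and 78.8 CPM in the Atf4 libraries, 88.1, 82.8, 87.7, 85.8 and 81.8 CPM in the Atf3 libraries and 46.5, 43.4, 45.8, 44.7 and 47.8 CPM in the control libraries. It rose 1.52-fold in Atf4 cells (0.61 ± 0.05 SE, adjusted p by edgeR = 3.4e-09) and 1.87-fold in Atf3 cells (0.90 ± 0.05 SE, adjusted p by edgeR = 6.9e-12), with no overlap of lines. Nqo1 (ENSMUSG00000003849; chromosome 8, 107388225 to 107403206, minus strand) encodes a quinone reductase. It was at 19.6, 18.7, 17.2, 16.9 and 15.8 CPM in the Atf4 libraries, 16.9, 19.6, 16.9, 18.7 and 18.4 CPM in the Atf3 libraries and 16.0, 14.9, 15.1, 15.6 and 16.0 CPM in the control libraries. The Atf4 libraries overlapped those of the control line, whereas all Atf3 libraries lay above it. Nqo1 was 1.14-fold higher in Atf4 cells (0.19 ± 0.06 SE, adjusted p by edgeR = 0.0106), a call that ended without Atf4 replicate 2 (adjusted p = 0.0510). It was 1.16-fold higher in Atf3 cells (0.22 ± 0.06 SE, adjusted p by edgeR = 0.00252), which was not called with plain library totals (0.08, adjusted p = 0.218).

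The gene of NRF2 itself rose in both Atf lines. Nfe2l2 (ENSMUSG00000015839; chromosome 2, 75675513 to 75704641, minus strand) was at 125, 119, 124, 119.6 and 119.8 CPM in the Atf4 libraries, 147, 138, 140.3, 137 and 136 CPM in the Atf3 libraries and 99.5, 99.3, 96.9, 97.0 and 101 CPM in the control libraries. The 3 lines stood apart, at 1.23-fold the control level in Atf4 cells (0.30 ± 0.03 SE, adjusted p by edgeR = 7.9e-08) and 1.42-fold in Atf3 cells (0.50 ± 0.03 SE, adjusted p by edgeR = 3.1e-11). NRF2 is controlled chiefly through the stability of the protein, which was not measured. G6pdx (ENSMUSG00000031400; chromosome X, 74409483 to 74429194, minus strand), the entry enzyme of the pentose phosphate pathway, was at 68.3 to 76.3 CPM in the Atf4 libraries, 74.7 to 79.5 CPM in the Atf3 libraries and 64.3 to 71.5 CPM in the control libraries. It did not pass the test in Atf4 cells (0.07 ± 0.04 SE, adjusted p by edgeR = 0.115, 95% interval 0.997- to 1.11-fold) and was 1.13-fold higher in Atf3 cells (0.17 ± 0.04 SE, adjusted p by edgeR = 4.3e-04). The call in Atf3 cells ended with plain library totals (0.04, adjusted p = 0.395). Libraries were made without strand marking, and 13.6% of the exon bases of G6pdx are shared with the neighbouring gene Ikbkg on the other strand. Smaller parts of Gss (6.68%) and Gclm (4.71%) are shared with another gene, and the share of reads from these neighbours was not measured.

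**Figure D3:**
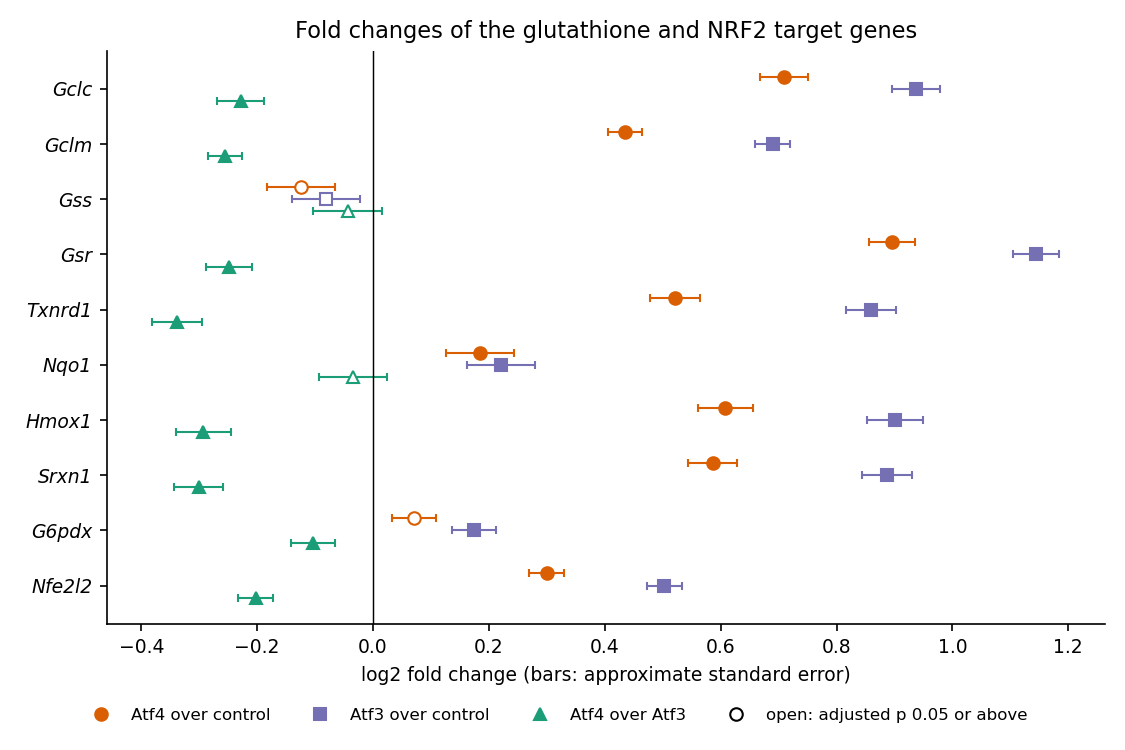
Log2 fold changes of the 10 genes for the Atf4 line over control, the Atf3 line over control and the Atf4 line over the Atf3 line, with bars for the approximate standard error; open symbols did not pass an adjusted p of 0.05. For all 10 genes the Atf3 change lay to the right of the Atf4 change, and Gss lay just left of 0 in all 3 comparisons.

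Set against each other, the Atf4 line was lower than the Atf3 line for most of these genes. The test called 8 of 10 lower and none higher in Atf4 cells, where 23.9% of all tested genes were called lower and 19.7% higher. In 7 of the 10 every Atf4 library lay below every Atf3 library, which held for 16.3% of all tested genes. The largest difference was that of Txnrd1 (-0.34 ± 0.04 SE, adjusted p by edgeR = 7.4e-06), followed by Srxn1 (-0.30 ± 0.04 SE, adjusted p by edgeR = 1.8e-05) and Hmox1 (-0.29 ± 0.05 SE, adjusted p by edgeR = 8.0e-05). Gclm, Gsr, Gclc and Nfe2l2 differed by -0.25, -0.25, -0.23 and -0.20 on the log2 scale, with adjusted p by edgeR of at most 2.2e-04. With plain library totals the differences of these 7 genes kept their calls but were smaller, at -0.24 for Txnrd1, -0.20 for Srxn1, -0.19 for Hmox1, -0.15 for Gclm, -0.15 for Gsr, -0.13 for Gclc and -0.10 for Nfe2l2 (adjusted p by edgeR of at most 0.0164). G6pdx was the eighth (-0.10 ± 0.04 SE, adjusted p by edgeR = 0.0336), but its libraries overlapped, and its call ended with 4 other settings and without any 1 of 6 libraries: control replicate 3, Atf3 replicate 2 or 4, and Atf4 replicate 2, 4 or 5 (adjusted p = 0.0547 to 0.0984 over these 6). Nqo1 (-0.04 ± 0.06 SE, adjusted p by edgeR = 0.656) and Gss (-0.04 ± 0.06 SE, adjusted p by edgeR = 0.573) did not pass, with 95% intervals of 0.901- to 1.06-fold and 0.895- to 1.05-fold.

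The 3 lines thus came in one order for most of these genes, highest in Atf3 cells, between in Atf4 cells and lowest in control cells. By mean this order held for 9 of the 10, against 32.1% of all tested genes. Among the 9, the step between the Atf lines was uncertain for Nqo1 and G6pdx. For Nqo1 the log2 fold change of Atf4 over Atf3 cells was not called and turned to 0.0063 without Atf4 replicate 5. For G6pdx it was -0.0019 with plain library totals. For Gclc, Gclm, Gsr, Txnrd1, Hmox1, Srxn1 and Nfe2l2 the order held for every library, a pattern seen in 9.96% of all tested genes. Atf4 mRNA was ordered in the same way, and its part in the order of these genes was not tested. The plot of levels by library shows the same 7 genes as 3 steps.

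Scaled to exon length, Gss had the lowest level of the 10 genes in every line, and other ranks differed between lines. In Atf4 cells Hmox1 (39.7 ± 3.26 CPM per kb) and Txnrd1 (38.9 ± 2.53) led and overlapped with each other, and Gss was lowest (3.45 ± 0.287). In Atf3 cells Txnrd1 (49.2 ± 2.05 CPM per kb) and Hmox1 (48.7 ± 1.63) led and overlapped, and Gss was again lowest (3.55 ± 0.273). In control cells Txnrd1 (27.1 ± 0.952 CPM per kb), Hmox1 (26.1 ± 0.958) and Nfe2l2 (26.0 ± 0.442) led, with overlapping libraries between neighbours, and Gss was lowest (3.76 ± 0.104). Gsr stood above G6pdx in both Atf lines (26.4 ± 1.43 against 23.3 ± 1.10 CPM per kb in Atf4 cells, 31.3 ± 1.22 against 25.04 ± 0.588 in Atf3 cells) and below it in control cells (14.2 ± 0.327 against 22.2 ± 0.920). Srxn1 likewise stood above Nqo1 in Atf3 cells (14.8 ± 0.392 against 11.7 ± 0.773 CPM per kb) and below it in control cells (8.02 ± 0.530 against 10.0 ± 0.336), while in Atf4 cells both overlapped (12.04 ± 0.288 and 11.4 ± 0.977).

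**Figure D4:**
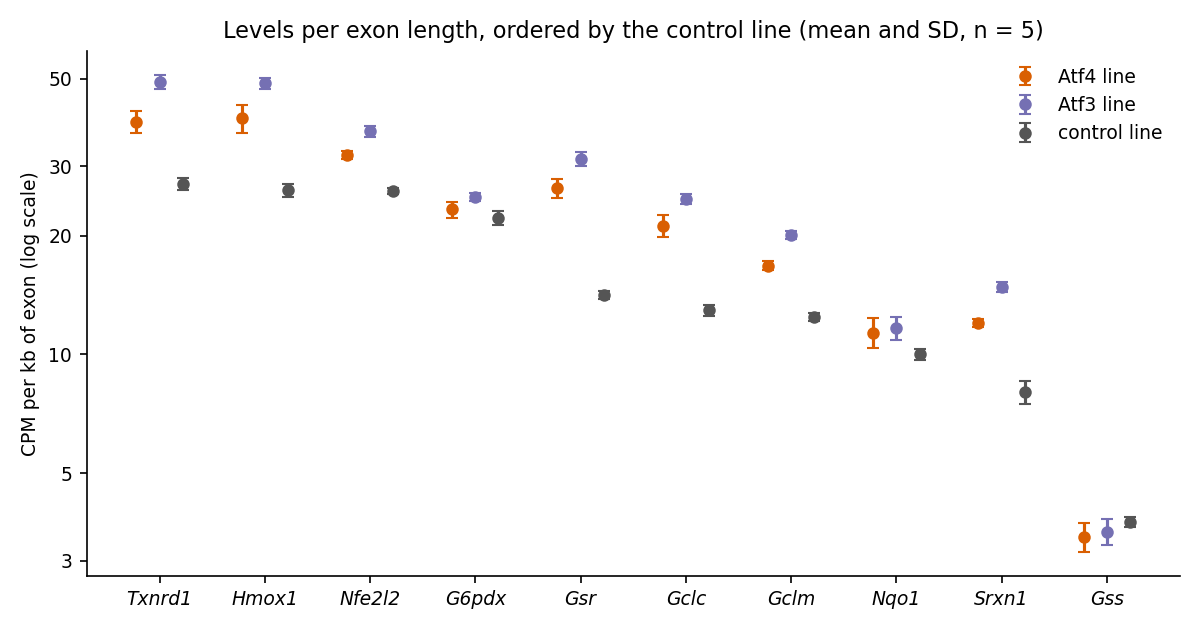
CPM per kb of exon, on a log axis, for the 10 genes in Atf4, Atf3 and control cells, as mean and SD of 5 libraries, with genes ordered by their level in control cells. Gsr, at 14.2 CPM per kb in control cells and 31.3 in Atf3 cells, passes G6pdx, and Gss is lowest in all 3 lines.

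The transport genes of cystine and glutathione rose too. All 5 listed transporters were called higher in both Atf lines. For this list and those below, 31.9% of all tested genes were called higher and 29.7% lower in Atf4 cells. In Atf3 cells these shares were 36.8% and 36.3%. Slc7a11, the cystine importer of system xc- and a known ATF4 target, was at 15.2, 16.2, 18.7, 23.4 and 37.4 CPM in the Atf4 libraries, 20.9, 18.4, 25.7, 19.2 and 22.8 CPM in the Atf3 libraries and 5.65, 5.80, 6.24, 6.31 and 5.12 CPM in the control libraries. Its log2 fold change was 1.93 ± 0.19 SE in Atf4 cells and 1.88 ± 0.20 SE in Atf3 cells (adjusted p by edgeR = 9.5e-08 and 6.8e-08), larger than that of any of the 10 genes. The Atf lines did not pass the test against each other (0.05 ± 0.18 SE, adjusted p by edgeR = 0.852). Its partner Slc3a2 rose by 0.67 ± 0.04 SE in both (adjusted p by edgeR = 3.1e-10 and 1.2e-10), and Slc25a39, which carries glutathione into mitochondria, by 0.41 ± 0.03 SE and 0.57 ± 0.03 SE (adjusted p by edgeR = 3.2e-09 and 1.3e-11).

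Glutathione breakdown enzymes were mixed, with 6 of 8 tested called higher and 2 lower in Atf4 cells, and 4 higher and 3 lower in Atf3 cells. Chac1, a glutathione-degrading enzyme and a known ATF4 target, was at 1.67, 2.32, 2.92, 3.05 and 8.01 CPM in the Atf4 libraries, 8.24, 5.86, 7.96, 7.80 and 6.61 CPM in the Atf3 libraries and 0.915, 0.626, 0.826, 0.727 and 0.430 CPM in the control libraries. Its log2 fold change was 2.34 ± 0.36 SE in Atf4 cells (adjusted p by edgeR = 1.5e-05) and 3.37 ± 0.34 SE in Atf3 cells (adjusted p by edgeR = 5.2e-08), but the gene is scarce, and the Atf4 value was 1.80 without Atf4 replicate 5. Ggct, the next enzyme of the breakdown path, rose by 0.58 ± 0.05 SE and 0.88 ± 0.05 SE (adjusted p by edgeR = 3.6e-08 and 5.2e-11), and Ggt7 fell by 0.25 and 0.47 on the log2 scale (adjusted p by edgeR = 0.00272 and 3.0e-06).

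Enzymes that spend glutathione did not rise as a group. Of 18 tested glutathione S-transferases 5 were called higher and 6 lower in Atf4 cells, and 7 higher and 8 lower in Atf3 cells, with medians of 0.06 and -0.28 on the log2 scale. Gsto1 rose by 0.74 ± 0.06 SE and 1.02 ± 0.06 SE (adjusted p by edgeR = 1.9e-09 and 9.6e-12), while the microsomal Mgst1 fell by 0.82 and 1.07 (adjusted p by edgeR = 9.5e-09 and 1.1e-10). Near-identical family members such as Gstp1 and Gstp2, or the Gstm genes, can share reads, so their single counts are uncertain. Among 9 tested peroxidases, glutaredoxins and glyoxalases 3 were higher and 2 lower in Atf4 cells, and 4 higher and 2 lower in Atf3 cells. Gpx4, which clears lipid peroxides, was at 136 ± 8.88 CPM in Atf4 cells, 145 ± 4.39 CPM in Atf3 cells and 138 ± 3.96 CPM in control cells and did not pass against control (adjusted p by edgeR = 0.591 and 0.125).

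**Figure D5:**
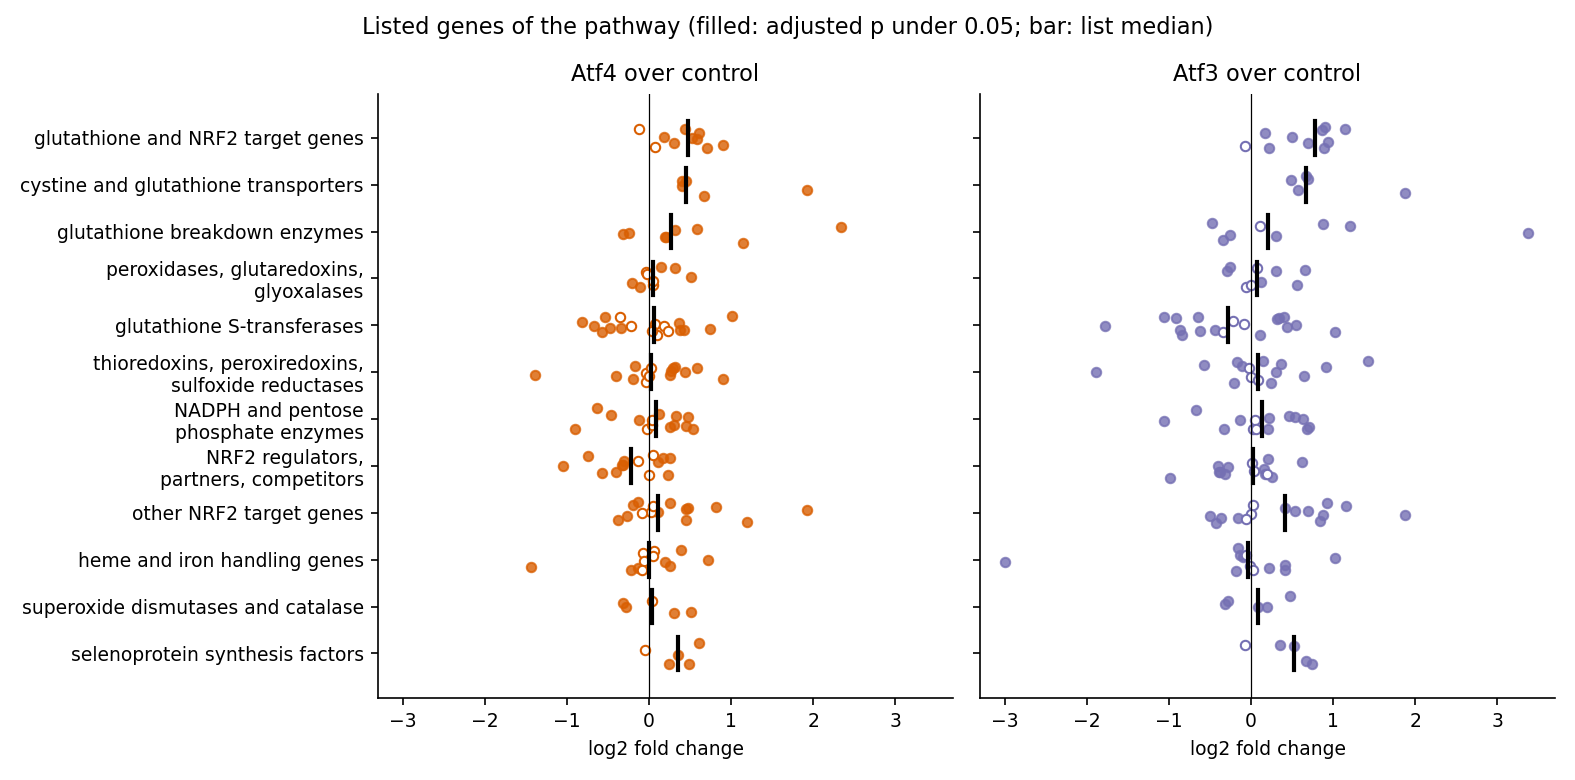
Log2 fold changes of the tested genes of each list, for the Atf4 line over control on the left and the Atf3 line over control on the right; filled points passed an adjusted p of 0.05, and black bars are list medians. The 10 genes, the transporters and the selenoprotein synthesis factors lie mostly right of 0, and the transferases spread to both sides.

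In the thioredoxin and peroxiredoxin list 7 of 15 were called higher and 4 lower in Atf4 cells, and 7 higher and 5 lower in Atf3 cells. Txn1, the substrate of TXNRD1, was at 404 ± 20.9 CPM in Atf4 cells, 506 ± 45.2 CPM in Atf3 cells and 269.6 ± 22.1 CPM in control cells (0.58 ± 0.06 SE and 0.91 ± 0.06 SE, adjusted p by edgeR = 1.4e-07 and 1.6e-10). Txnrd3, a relative of Txnrd1 expressed mainly in testis, rose more (0.90 ± 0.07 SE and 1.42 ± 0.06 SE, adjusted p by edgeR = 1.2e-09 and 9.5e-13). Txnip, whose product binds and inhibits thioredoxin, fell to 12.6 ± 3.75 CPM in Atf4 cells and 8.96 ± 1.65 CPM in Atf3 cells, against 33.1 ± 3.49 CPM in control cells (adjusted p by edgeR = 5.4e-07 and 6.9e-09); 19.4% of its exon bases are shared with another gene. Prdx1, an abundant peroxiredoxin and an NRF2 target, was at 649 ± 27.3, 641 ± 23.5 and 641 ± 15.6 CPM in Atf4, Atf3 and control cells (adjusted p by edgeR = 0.679 and 0.988 against control). Of 5 factors that insert selenocysteine into proteins such as TXNRD1, 4 were called higher in each Atf line and none lower, among them Sephs2 (0.48 ± 0.05 SE and 0.74 ± 0.05 SE, adjusted p by edgeR = 1.4e-07 and 1.8e-10), which shares 36.4% of its exon bases with another gene.

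NADPH supply was split. Of 14 listed enzymes 7 were called higher and 4 lower in each Atf line. Idh2, the mitochondrial isocitrate dehydrogenase, rose by 0.47 ± 0.03 SE in Atf4 cells and 0.71 ± 0.03 SE in Atf3 cells (adjusted p by edgeR = 8.4e-10 and 1.4e-12), and the malic enzyme Me1, an NRF2 target, by 0.45 ± 0.04 SE and 0.54 ± 0.04 SE (adjusted p by edgeR = 7.0e-09 and 2.2e-10). Cytosolic Idh1 fell by 0.46 and 0.33 (adjusted p by edgeR = 4.0e-08 and 1.6e-06). Pgd, the next NADPH-forming step after G6PDX, rose slightly, by 0.12 ± 0.03 SE and 0.22 ± 0.03 SE (adjusted p by edgeR = 0.00195 and 2.9e-06).

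Other NRF2 targets, a list that shares Slc7a11, Abcc1, Prdx1, Me1 and iron genes with the other lists, were called higher in 8 of 15 tested cases and lower in 4 in each Atf line, with a median log2 fold change of 0.11 in Atf4 cells and 0.42 in Atf3 cells. Ephx1, an epoxide hydrolase, rose by 0.48 ± 0.03 SE and 0.84 ± 0.03 SE (adjusted p by edgeR = 2.8e-10 and 1.0e-13). Ugdh, which makes UDP-glucuronate, fell by 0.38 and 0.50 (adjusted p by edgeR = 1.6e-05 and 3.7e-07). The aldehyde oxidase gene Aox1 was at 36.9 CPM in Atf4 cells, 62.8 CPM in Atf3 cells and 34.1 CPM in control cells, and it was lower in Atf4 cells than in Atf3 cells (-0.77 ± 0.05 SE, adjusted p by edgeR = 4.5e-09).

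The regulators of NRF2 did not move as one. Of 14 listed genes 4 were called higher and 7 lower in Atf4 cells, and 5 higher and 6 lower in Atf3 cells. Bach1, a repressor that competes for antioxidant response elements and is known to silence Hmox1, fell to 38.4 ± 1.86 CPM in Atf4 cells and 38.4 ± 1.45 CPM in Atf3 cells, against 50.9 ± 1.40 CPM in control cells (adjusted p by edgeR = 4.9e-08 and 2.5e-08). Sqstm1, whose product p62 draws KEAP1 away from NRF2 and which is itself an NRF2 target, fell to 260.6 ± 21.9 CPM in Atf4 cells and 259.9 ± 10.7 CPM in Atf3 cells, against 324 ± 11.2 CPM in control cells (adjusted p by edgeR = 1.8e-05 and 1.0e-05). Of its exon bases 17.3% are shared with Mrnip on the other strand, and 10.9% of those of Keap1 are shared with another gene. Keap1 was higher, at 56.1 ± 1.19 CPM in Atf4 cells and 53.0 ± 4.11 CPM in Atf3 cells, against 47.7 ± 1.62 CPM in control cells (adjusted p by edgeR = 2.0e-04 and 0.00574), and the Atf3 call ended with plain library totals (0.01, adjusted p = 0.785) and with the filter at 1 CPM (adjusted p = 0.0685). Nfe2l1, a relative of Nfe2l2, was at 421 ± 21.0, 420.3 ± 5.12 and 353 ± 9.05 CPM in Atf4, Atf3 and control cells (adjusted p by edgeR = 2.7e-06 and 1.9e-06). The small MAF gene Mafg was at 83.6 ± 10.3 CPM in Atf4 cells, 114 ± 6.85 CPM in Atf3 cells and 74.1 ± 2.85 CPM in control cells, a rise in Atf3 cells (0.62 ± 0.07 SE, adjusted p by edgeR = 7.8e-08). Its Atf4 change (0.17 ± 0.07 SE, adjusted p by edgeR = 0.0278) was lost under 10 of the 24 alternatives, among them leaving out Atf4 replicate 5 (0.09, adjusted p = 0.143).

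Heme and iron genes, the context of Hmox1, were called higher in 4 of 12 cases and lower in 3 in Atf4 cells, and higher in 4 and lower in 5 in Atf3 cells. These counts lay near the shares of all tested genes, 31.9% and 29.7% in Atf4 cells and 36.8% and 36.3% in Atf3 cells. The log2 fold changes of this list ran from -1.44 to 0.72 in Atf4 cells and from -2.99 to 1.02 in Atf3 cells. The transferrin receptor gene Tfrc rose by 0.72 ± 0.06 SE and 1.02 ± 0.06 SE (adjusted p by edgeR = 1.8e-08 and 6.4e-11), and the ferritin heavy chain gene Fth1 by 0.25 ± 0.04 SE and 0.42 ± 0.04 SE (adjusted p by edgeR = 1.3e-05 and 1.1e-08). Ireb2 was called lower in both lines, at -0.26 to -0.20 in Atf4 cells and -0.32 to -0.14 in Atf3 cells over the alternatives. Superoxide dismutases and catalase were split too, with Sod2 higher (0.30 ± 0.03 SE and 0.47 ± 0.03 SE, adjusted p by edgeR = 5.7e-07 and 5.6e-10) and Cat lower (-0.32 ± 0.05 SE and -0.28 ± 0.05 SE, adjusted p by edgeR = 9.3e-06 and 2.5e-05).

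Genes with the most similar pattern were found for Nfe2l2, Hmox1, Nqo1 and Gsr from the root mean square difference of log2 CPM over the 15 libraries, after each gene was centred on its mean. The search covered tested genes with a count in every library and a mean log2 CPM of at least 2, with predicted genes and clone names left out. Nearest to Nfe2l2 were Ywhab (0.0241), Tmem208 (0.0310) and Ngdn (0.0333). Hmox1 was nearest to Ggct (0.0437), the glutathione breakdown enzyme described above, then Nudcd2 (0.0496) and Prelid3b (0.0524). The nearest genes to Gsr were Gle1 (0.0428), Tfdp1 (0.0448) and Efnb1 (0.0466), and to Nqo1 Slc38a3 (0.0596), Mrps11 (0.0613) and Tbcb (0.0621). The distances are descriptions of these libraries, in which the difference between lines dominates.

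A scale effect bears on the small changes. With plain library totals in place of TMM, the median log2 fold change of all tested genes moved from -0.017 to -0.16 for the Atf3 line over control and from 0.0070 to 0.11 for the Atf4 line over the Atf3 line. In that setting 5214 genes were called higher and 8358 lower for the Atf3 line over control, against 6721 and 6630 with TMM, and 6196 higher and 2369 lower for the Atf4 line over the Atf3 line, against 3595 and 4363. Of the 10 genes, the calls of Gclc, Gclm, Gsr, Txnrd1, Hmox1, Srxn1 and Nfe2l2 kept their direction in all 3 comparisons under every alternative run. In bulk samples, more RNA of a gene per cell and a larger share of cells that express it cannot be told apart.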

How the data were processed

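RNA sequencing libraries (15) were analysed from the authors' deposited table of raw counts per Ensembl gene, which are whole numbers and not normalized. The kit was NEBNext Ultra, and reads were pairs of 150 bases, per the labels' protocols. The submitters' processing notes list STAR, edgeR and mm10. Tool versions, how reads were counted and whether strand was used are not stated in what was used here. Symbols, exon lengths and coordinates came from GENCODE M21 on GRCm38 (52135 of 55416 identifiers matched, and the rest held at most 0.208% of a library's counts), and promoter sequences from RefSeq. Identifiers in the table are in part newer than that annotation. Groups and replicate numbers were taken from the titles.

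Counts were tested in R 4.3.3 with edgeR 4.0.16 (filterByExpr, TMM, quasi-likelihood test, all 15 libraries with 1 coefficient per line), and p-values were adjusted over all 18244 genes tested. A call is an adjusted p under 0.05. SE is approximate, the absolute log2 fold change over the root of F, and 95% intervals are 1.96 SE wide on each side. The scripts were tested on simulated counts. Within each line, chi-square over its degrees of freedom was 5.47 to 53.4 between libraries, more than sampling noise. Libraries with equal replicate numbers did not deviate together (correlations of -0.0791 to 0.0985). The members and all gene lists (11 pathway lists and 5 marker lists) were chosen with earlier results of these data known. Named genes are the 10 members, others fixed by name (such as Keap1, Bach1 and Slc7a11), and a subset of the up to 2 rising and 2 falling called genes per list and comparison with the smallest adjusted p and a mean log2 CPM of at least 2. Alternatives were DESeq2 1.42.0, limma-voom (limma 3.58.1), RLE scaling, plain totals, 2 other filters, a fit of 2 lines at a time, the replicate block, each library left out, and control replicates 4 and 5 left out together.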

Additional observations from a re-analysis of the deposited data

Results flagged for a closer look

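Single libraries stood apart from the other 4 of their line in 2 of 75 sets of 5 libraries (25 genes in 3 lines), where chance alone gives about 1 in 20. Srxn1 was at 25.2 CPM in control replicate 5, against 21.3 to 22.4 CPM in the other control libraries, and its fold changes kept their calls without that library. Chac1 was at 8.01 CPM in Atf4 replicate 5, against 1.67 to 3.05 CPM in the other Atf4 libraries. Without that library its log2 fold change was 1.80 for the Atf4 line over control and -1.55 for the Atf4 line over the Atf3 line, against 2.34 and -1.04 with it.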

How the results depend on the processing

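Under 24 alternatives, 720 fold changes of the 10 genes were recomputed. Of these, 701 kept their side of the threshold, 13 lost the call and 6 gained one. All of these changes of call concerned Gss, Nqo1 and G6pdx. Fold changes that kept their call also kept their direction. The uncalled differences between the Atf lines for Gss and Nqo1 turned positive without Atf4 replicate 5, at 0.00085 and 0.0063 on the log2 scale. The count of genes called lower was 0 against control, but 1 (Gss) in each Atf line with plain library totals and with the filter at 1 CPM, and 0 to 1 in the Atf4 line when single libraries were left out. The counts called higher were 7 to 8 in the Atf4 line and 9 in the Atf3 line, and those lower in Atf4 than in Atf3 cells 7 to 8, over the libraries left out. With plain library totals they were 8, 7 and 7, since Nqo1 and G6pdx were no longer called in the Atf3 line. With the replicate number as a block they were 8, 9 and 8, as without it, and no call of the 10 genes changed; each comparison had 1 of 5 libraries that correlated best with its own number. With plain library totals, the Atf4 line over the Atf3 line turned to 0.10 for Bach1, 0.0024 for Pgd and 0.011 for Cndp2. The median of all tested genes moved in the same direction in that setting, from 0.0070 to 0.11, and the part of this shift was not tested. Depth did not limit the 10 genes, with at least 832 counts each, but Chac1 and other genes near 1 CPM were less certain.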

Other observations

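Within the Atf4 line, Atf4 mRNA itself varied, at 128, 147, 150, 154 and 188 CPM in replicates 1 to 5. The library with the most Atf4 mRNA, replicate 5, was also the highest of its line for Gclc (86.5 CPM), Gsr (78.5 CPM), Txnrd1 (301 CPM), Hmox1 (78.8 CPM), Slc7a11 (37.4 CPM) and Chac1 (8.01 CPM). It was the lowest for Gss (18.04 CPM), Nqo1 (15.8 CPM), G6pdx (68.3 CPM) and Txnip (7.29 CPM). The other members had their highest Atf4 library elsewhere, Gclm (109 CPM) and Srxn1 (34.7 CPM) in replicate 4 and Nfe2l2 (125 CPM) in replicate 1. Replicate 5 also stood apart over all genes: its first principal component was 27.1, against 1.11 to 14.3 in the other Atf4 libraries. Its chi-square per degree of freedom was 26.3 to 53.4 against replicates 1 to 3 and 11.7 against replicate 4. The part of Atf4 mRNA in these values was not tested, and with 5 libraries no correlation is given.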
